A study of Mus musculus with 8 samples.

Results

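The normal mature mouse egg was described here from its wild-type (WT) libraries alone: 4 of the 8 libraries of a series that also holds Esrp1-KO eggs, which enter no comparison. The eggs were oocytes arrested at metaphase of the second meiotic division (MII) from WT C57BL/6 females of 42 days (6 weeks). Each library was made by Smart-seq2, which primes on the poly(A) tail and keeps no strand, from a tube of 15 eggs. The study's design text calls the 4 libraries biological replicates. Whether each tube holds the eggs of 1 female is not stated, so the spread between tubes may include or leave out differences between animals. Every gene of the deposited tables was taken: 24860 genes are listed, 24812 of them with an entry in the GENCODE M21 annotation of GRCm38, and each listed gene lies above 0 in at least 1 of the 8 libraries.

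A mature egg is transcriptionally silent. It carries a store of mRNA made while the oocyte grew, which is held with short poly(A) tails, used in turn by lengthening of those tails, and cleared as the embryo takes over. Values are FPKM, fragments scaled to exon length and to library size, and so compare genes per unit of length. They are relative to each library's total: less RNA per egg, or fewer intact eggs in a tube, cannot be told apart from them and does not show in them.

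The egg transcriptome was dominated by few genes. The 10 most abundant genes held 19.6 to 21.5% of each library's summed FPKM, the top 100 held 51.0 to 54.0%, and the top 1000 held 80.3 to 82.0%. Between 76 and 93 genes were enough to reach 50% of the sum. The same genes led in every tube: 91 genes were in the top 100 of every library and 109 in that of any. A mean of at least 1 FPKM, called expressed from here on, was reached by 8169 of the 24860 listed genes (32.9%), among them 7022 protein-coding genes, and 7137 genes reached 1 FPKM in every library. At the top, 399 genes reached 100 FPKM and 46 reached 1000.

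The libraries hold 25018182 to 28932109 reads each, as recovered from the smallest step between values, and a gene of mean 1 to 5 FPKM rests on a median of 226 reads per library. Across the 4308 genes that average 5 FPKM or more, pairs of libraries correlated with Pearson's r between 0.955 and 0.971 on log2(FPKM + 1), given as a description over genes. Library 1 listed 20047 genes above 0, library 2 15201, library 3 17103 and library 4 18100. Most of that gap lies in genes with 1 to 5 reads, of which library 1 had 5306 and library 2 had 2054, whereas the number at 1 FPKM or more ran only from 7982 to 8444. Library 1 also stood apart by 80 genes that reached 1 FPKM there and stayed under 0.1 in the other tubes; they are described last.

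The 4 oocyte markers were present in every tube. Dazl, a germ-cell RNA-binding protein that activates translation, measured 840, 809, 973 and 815 FPKM in libraries 1 to 4 (859 ± 76.7, SD, n = 4). Ccnb1, cyclin B1, measured 886, 825, 773 and 830 FPKM (828 ± 46.2). Both stand among the 60 most abundant of all listed genes. Mos, the kinase that holds the egg at metaphase, measured 162, 220, 242 and 191 FPKM (204 ± 34.9). Zp3, the zona pellucida protein that the growing oocyte secretes into its coat, was lower, at 70.1, 62.2, 68.7 and 70.9 FPKM (68.0 ± 3.97), place 611 among all genes. All 4 are markers of oocytes in general and do not tell a mature from an immature one.

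Bcl2l10, a BCL2-family regulator of cell death (chr9:75347758-75351632, plus strand), was the most abundant gene in each library. It measured 14074.5, 14425, 14923.6 and 13783.2 FPKM in libraries 1 to 4 and made up 4.41 ± 0.0850% of the summed FPKM. H1foo, the oocyte linker histone (chr6:115944938-115950236), followed with 9332 ± 1628 FPKM. Its 4 values were 8099, 9404, 11608 and 8216, so library 3 was the highest and libraries 1 and 4 were close to each other. Spin1, spindlin, a reader of methylated histone H3 (chr13:51100880-51152546), came next in the mean, with 8322, 8589, 8404 and 8483 FPKM (8450 ± 114). H1foo and Spin1 changed places between libraries, and their ranges overlap. Zbed3, a member of the subcortical maternal complex beneath the egg membrane (chr13:95323612-95337841), measured 6740, 6632, 7354 and 8647 FPKM. Btg4, the adaptor that brings the CCR4-NOT deadenylase to maternal mRNA (chr9:51060901-51119875), measured 5077, 6162, 6059 and 4950 FPKM and held place 6 in all 4 libraries, below the mitochondrial mt-Cytb.

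**Figure D1:**
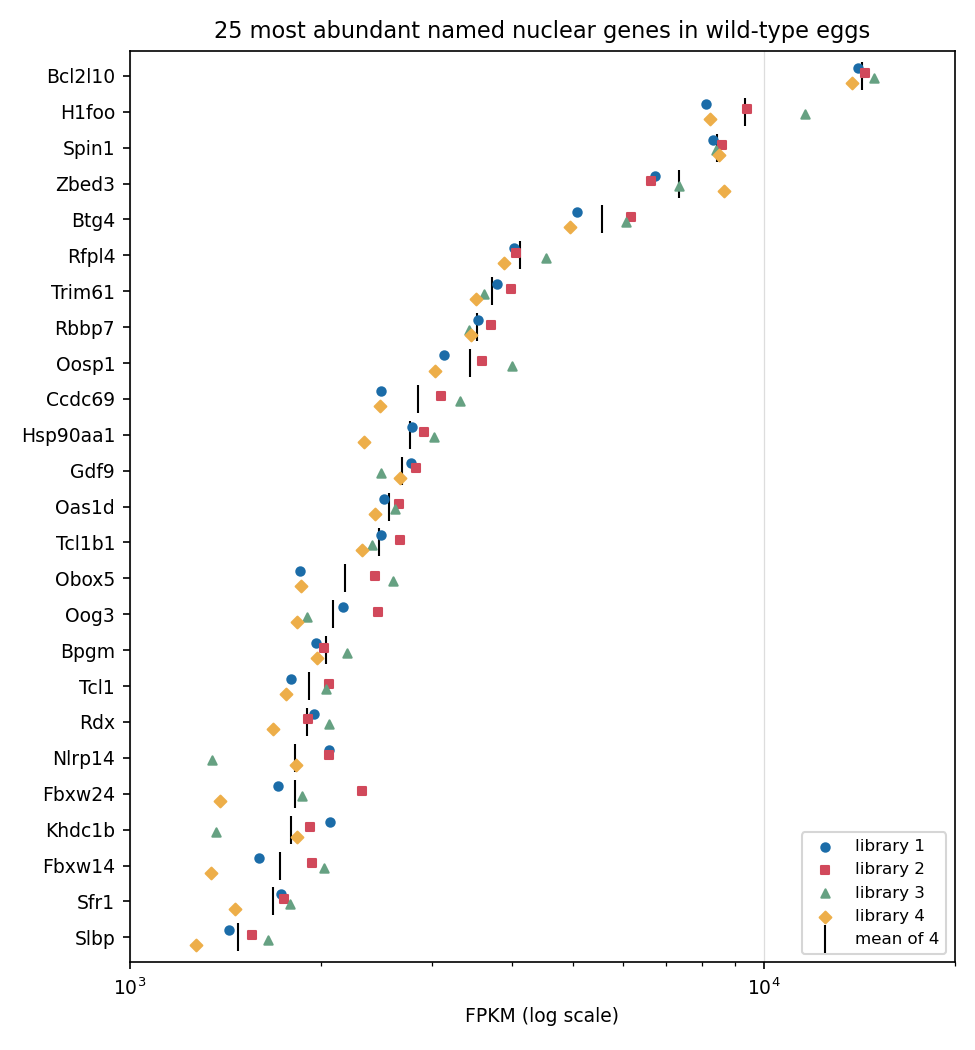
FPKM (horizontal axis, log scale) of the 25 most abundant named nuclear protein-coding genes in each of the 4 WT libraries (symbols) with the mean (black bar). Bcl2l10 is the highest in every library, and the ranges of most genes overlap those of their neighbours, as for H1foo and Spin1.

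The 25 most abundant named nuclear genes together held 28.9 ± 0.902% of the summed FPKM (28.0 to 29.9%). Below Btg4 stand the oocyte RING-finger gene Rfpl4 (4128 ± 278 FPKM), Trim61 (3731 ± 207), the histone chaperone Rbbp7 (3531 ± 129), the secreted oocyte protein Oosp1 (3445 ± 450), Ccdc69 (2849 ± 425), the chaperone Hsp90aa1 (2765 ± 298) and the growth factor Gdf9 (2691 ± 149). The list goes on through Oas1d, Tcl1b1, Obox5, Oog3, Bpgm, Tcl1, Rdx, Nlrp14, Fbxw24, Khdc1b, Fbxw14 and Sfr1 to Slbp, the histone-mRNA binding protein, at 1480 ± 165 FPKM. Order within this list is loose: in 22 of its 25 steps to the next gene the 2 ranges over libraries overlap. Bpgm, an enzyme that makes bisphosphoglycerate in red cells, and Sfr1, a partner of the recombinase in DNA repair, are better known from those settings than from the egg, and stood at 2043 ± 110 and 1685 ± 147 FPKM. Loci with only a predicted or clone name reach the same range but were kept out of the named list, among them E330021D16Rik (3671 ± 282 FPKM).

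Of these 25 genes, 24 have a 3′ UTR of at least 100 bases in the principal M21 transcript, and 10 of the 24 hold TTTTAT, the core of the cytoplasmic polyadenylation element bound by CPEB1, in the last 100 bases, on the transcript's strand. Among all 19383 annotated nuclear protein-coding genes with such a UTR the share is 13.9%. The nuclear polyadenylation hexamer AATAAA is in the same window of 15 of the 24 genes and of 64.8% of all genes. Windows of 30 bases are printed for the 4 most abundant genes with the element, and for Gdf9 and Bpgm, in which the hexamer falls into the same window, to show how the 2 motifs lie to each other. Capitals mark TTTTAT and AATAAA.
H1foo: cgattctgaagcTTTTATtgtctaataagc
Spin1: tctgtaagtaatTTTTATaattatgatgta
Zbed3: tttttttttAATAAAcTTTTATttatctgc
Btg4: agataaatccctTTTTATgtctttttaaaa
Gdf9: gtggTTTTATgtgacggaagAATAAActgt
Bpgm: ttgtatccaTTTTATAATAAAacgggcctt
They lie, on the plus strand of GRCm38, at chr6:115950157-115950186 for H1foo, chr13:51152473-51152502 for Spin1, chr13:95337812-95337841 for Zbed3, chr9:51119797-51119826 for Btg4, chr11:53437862-53437891 for Gdf9 and chr6:34505575-34505604 for Bpgm. In H1foo and Spin1 the element starts 63 and 62 bases before the transcript end and the hexamer 18 bases before it. In Gdf9 the distances are 39 and 23 bases, in Bpgm 30 and 24, so that the 2 motifs abut, and in Zbed3 the element follows the hexamer. TTTTAT is not in the last 100 bases of the M21 principal transcripts of Mos, Ccnb1 and Dazl, and the annotated Zp3 3′ UTR has only 13 bases. Only TTTTAT was looked for, so its absence does not show that an element of other letters is absent. A match describes the letters and does not show a site in use.

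The share of genes with the element (TTTTAT only) was larger in more abundant bins. It was 9.83% among genes not listed (n = 3672), 12.2% under 0.1 FPKM, 14.3% at 1 to 5 FPKM (n = 3005), 18.7% at 5 to 20, 21.5% at 20 to 100, 27.8% at 100 to 500 (n = 273) and 31.5% at 500 FPKM and above (n = 73). Base composition moved with it: the mean A and T content of the window was 62.6% in genes not listed and 67.4% in the top bin. The same letters read backwards, TATTTT, also became more frequent, from 11.7% to 23.4% at 100 to 500 and 24.7% in the top bin, but exceeded the element in every bin up to 20 to 100 FPKM and not above. Within 61 to 69% A and T, the element was in 12.7% of genes under 1 FPKM or not listed (n = 3948), 19.6% at 20 to 100 (n = 455) and 27.8% at 100 FPKM and above (35 of 126). The reversed letters in those groups were in 14.7, 18.7 and 18.3%. With at least 70% A and T both became more frequent, the element from 22.5 to 37.3% and the reversed letters from 28.4 to 34.2%. With at most 60% A and T the element was rare at every level, in 3.93% of genes under 1 FPKM and 4 of 59 at 100 or more, where the reversed letters were as frequent (6.78% each). In the last 50 bases the element and the reversed letters were equally frequent in the upper bins, 13.1% each at 100 to 500 FPKM and 13.9% each above, so the excess over the reversed letters depends on the window. Related gene copies share UTR sequence, so the genes of a bin are not independent.

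**Figure D2:**
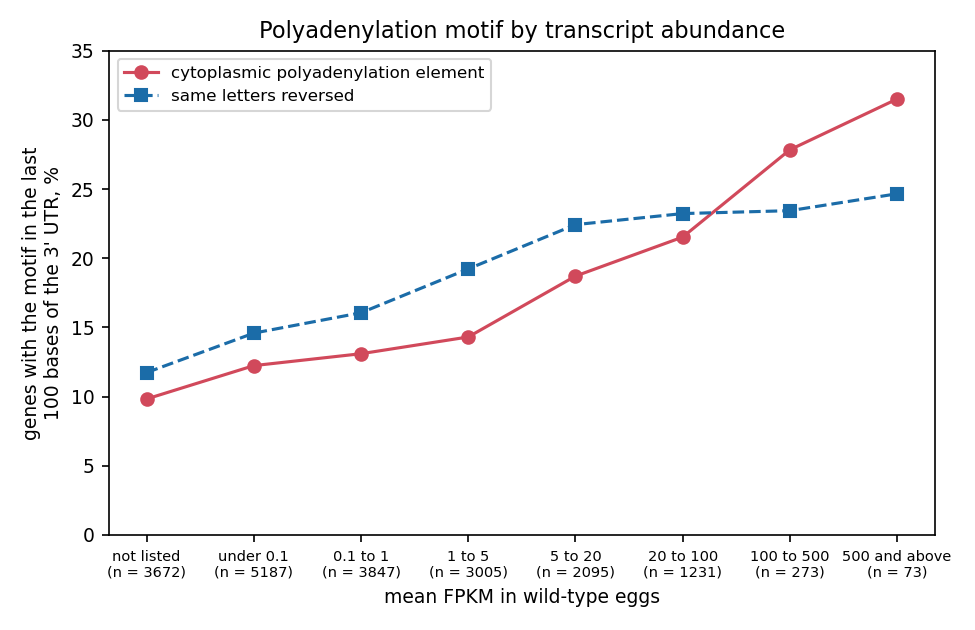
Share of nuclear protein-coding genes (vertical axis, %) with the cytoplasmic polyadenylation element, searched as TTTTAT only (circles), and with its letters reversed (squares) in the last 100 bases of the 3′ UTR, by mean FPKM in the WT egg (horizontal axis, number of genes in brackets). The element is in 9.83% of genes not listed and 31.5% of those at 500 FPKM and above, and its line lies above that of the reversed letters from 100 FPKM on, which in the last 50 bases it does not (13.9% each in the top bin).

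Genes from tandem and other multicopy families of the oocyte were a large part of the pool. The set taken here holds the Tcl1b, Oog and Pramef, Obox, oocyte Fbxw and maternal Nlrp genes. Further genes listed as multicopy egg genes were counted with them. Together they held 9.98 ± 0.982% of the summed FPKM. E330021D16Rik (chr6, 3671 FPKM), from none of the named families and outside the clusters below, was the highest member and made up 11.32% of the set. Of 64 listed members 55 were expressed, against 41.4% of all listed protein-coding genes, and 37 were at 100 FPKM or more. Among the 200 most abundant genes, 26 lay in 5 clusters of at least 3 genes with gaps of at most 500000 bases. The Tcl1 cluster (chr12:105146014-105222793), with Tcl1, a coactivator of AKT, and 5 Tcl1b genes, held 2.34 ± 0.154%. Tcl1b1 was its highest member, at 2486, 2672, 2411 and 2320 FPKM. The Fbxw cluster (chr9:109139447-109702700), whose 9 genes encode F-box proteins of ubiquitin ligases, held 2.29 ± 0.438%. Fbxw24 led it with 1714, 2323, 1873 and 1386 FPKM, highest in library 2 and lowest in library 4, and the oocyte F-box class as a whole ran in the same order, from 1.87 to 2.95%. Of the 15 oocyte F-box genes that average 5 FPKM or more, 4 differed by at least 1 between their highest and lowest library on log2(FPKM + 1), which 7.15% of all such genes did.

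The Obox homeobox genes, transcription factors of the egg and early embryo, split sharply. Obox5 (2188 ± 388 FPKM), Obox2 (1078), Obox1 (993) and Obox7 (792) were abundant, and 3 of them share a cluster (chr7:15388721-15759800) that held 1.31 ± 0.218%. Obox6 measured 40.3 FPKM in library 1 and 0.238, 0.0264 and 0.232 in libraries 2 to 4, so it was expressed in 1 tube only. In the Oog cluster (chr4:143437164-144162663) Oog3 stood at 2094 ± 286 FPKM, above Oog4 (223). Oog1 (138) and Oog2 (61.8 FPKM) were lower still. Near-identical copies make the split between members uncertain. Of the 50-base stretches of the transcript, 67.6% recur in other genes for Fbxw14, 63.0% for Obox2, 96.8% for Oog1, 13.02% for Obox5 and Tcl1b1, and 0% for Tcl1 and Nlrp14.

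The subcortical maternal complex, an assembly under the membrane that the first cleavages need, held 3.22 ± 0.319%. Of its 9 members 8 were expressed, against 41.4% of all listed protein-coding genes. Most of it was Zbed3. Nlrp14 measured 2059, 2065, 1350 and 1828 FPKM, lowest in library 3. Nlrp4f (516), the arginine deiminase Padi6 (302), Ooep (253) and Nlrp5, also named Mater (79.95 to 102.4 over libraries), followed. All 12 listed maternal NLR genes were expressed and 9 of them passed 100 FPKM, together 1.43 ± 0.254%. Nlrp4g, annotated as a pseudogene, measured 732, 1305, 581 and 954 FPKM.

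Zona and fertilization genes held 1.52 ± 0.138%, of which the secreted protein Oosp1 was 69.95%. Oosp3 (482 FPKM) also stood above Zp3, and Rgs2, which restrains early calcium release before fertilization, measured 605, 593, 583 and 522 FPKM. Astl, ovastacin, the protease that hardens the coat, stood at 84.5 FPKM. Zp2 measured 44.9 ± 2.65 and Zp1 30.3 ± 7.29 FPKM, Zp1 being lowest in library 3 (19.4) and between 33.3 and 34.3 in the others. The 3 coat genes kept the order Zp3, Zp2, Zp1 in all 4 libraries.

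Growth factors were led by the pair that the oocyte is known to secrete. Gdf9, which acts on the surrounding granulosa cells, measured 2772, 2829, 2489 and 2673 FPKM, and its partner Bmp15 1344, 1157, 1176 and 1246 FPKM (1231). Tgfb2 (71.3), the receptor Kit (16.1) and the gap-junction protein Gja4 (15.1 FPKM) were far lower. The class held 1.24 ± 0.0766%, and 3 of its 5 members at 5 FPKM or more differed by less than 0.25 between libraries on log2(FPKM + 1), against 21.1% of all such genes. Oocyte transcription factors were mostly low: Sall4 measured 306, 174, 341 and 338 FPKM, with library 2 the lowest, while Nobox (25.9), Gtf2a1l (24.2), Sebox (21.4) and Bnc1 (20.1) were near 20 FPKM. Oas1d, an inactive relative of the antiviral oligoadenylate synthetases, is on that list though it is no transcription factor, and it made up most of the list's 0.926%.

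Cell-cycle genes were broadly present. Of 40 listed genes of cyclins, CDK1 control and metaphase arrest, 36 were expressed, holding 0.812 ± 0.0214%. Below Ccnb1 came Cks1b (348), the inhibitory kinase Wee2 (277 ± 26.5), Mos (204), the activator Cdc20 (104) and Mastl (100 FPKM). Pttg1, securin, which guards the cohesin-cutting protease, led the genes of the anaphase-promoting complex and its targets with 958, 1162, 1157 and 1001 FPKM. Its E2 enzyme Ube2s measured 20.3, 27.8, 54.7 and 68.5 FPKM, with the values of libraries 3 and 4 above those of 1 and 2. Of 50 checkpoint and kinetochore genes 46 (92.0%) were expressed, against the same 41.4%, led by Bub1b (255), Dsn1 (249) and Cenpn (227 FPKM). Of the 34 with at least 5 FPKM, 11 were stable in the sense given above, against 21.1% of all.

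Spindle genes were led by Haus3 (201), Kif20b (181) and Tacc3 (168 FPKM). The listed values of the tubulins themselves were low, 0.0687 ± 0.00588% for 19 listed genes with none at 100 FPKM. Tubg2 stood at 66.7, Tubb3 at 49.3 and Tuba1c at 24.7 FPKM. Of the transcript, 83.1% of stretches recur in other genes for Tuba1b, 75.5% for Tuba1a and 61.0% for Tuba1c. The share is 55.5% for Tubb4b, but 14.3% for Tubg2 and 0% for Tubb3 and Tubb6. The part of shared sequence in the low level of the tubulins was not tested. The actin cortex list held 0.951 ± 0.0439%, of which Rdx, radixin, which links actin to the membrane, was the main part with 1949, 1912, 2065 and 1680 FPKM. Cdc42, the small GTPase of cell polarity, followed at 263 FPKM. Cohesin and synaptonemal genes ranged up to Esco2 (78.0), Wapl (77.6) and Esco1 (77.1 FPKM), with a class total of 0.218 to 0.229%.

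Chromatin genes were uneven. Histone variants, linker histones and their chaperones held 4.18 ± 0.535%, through H1foo, Slbp, H3f3b, which encodes the replacement histone H3.3 (958, 1054, 1011 and 937 FPKM), and Npm2, the nucleoplasmin that decondenses sperm chromatin (627, 774, 852 and 544 FPKM). Replication-dependent histones were near silent, with 6 of 43 listed genes expressed, against 41.4% of all listed protein-coding genes, and 0.00978 ± 0.00142% of the sum. These mRNAs end without a poly(A) tail, and the libraries were primed on that tail; its part in the low level was not tested. In DNA methylation and imprint protection, Dppa3, which shields the maternal genome from demethylation, measured 265, 508, 355 and 232 FPKM, Zfp57 297, the maintenance enzyme Dnmt1 168, and the Polycomb protein Bmi1 194 FPKM.

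mRNA decay genes held 2.003 ± 0.147% because Btg4 is among them; the decapping factor Dcp1a (140), the deadenylases Cnot7 (128) and Cnot8 (94.0) and the nuclease Xrn2 (65.5 FPKM) came far behind. Storage and translational control held 0.659 ± 0.0530%, with Dazl first, then Ybx1 (146), Zar1 (119), Fxr1 (91.0) and Eif4enif1 (83.8 FPKM). A list of 24 mRNAs known to be stored and later activated was entirely expressed, against 41.4% of all listed protein-coding genes. It held 4.57 ± 0.361%, and the median of its members was 118 FPKM. The list was drawn up from genes known in eggs, so its level is no independent evidence.

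Ribosomal proteins and elongation factors held little of the summed FPKM. All 84 cytosolic ribosomal protein genes were listed and 38 (45.2%) were expressed, close to the 41.4% of listed protein-coding genes. Their median was 0.683 FPKM, and the class held 0.237 ± 0.0288%. Its highest entries were Rps27l (263), a paralog of the ribosomal Rps27, Rpl17 (209) and Rpl4 (64.9 FPKM). Of the Rpl17 transcript, 78.7% of the 50-base stretches recur elsewhere, mainly in its pseudogenes. The share is 84.6% for Rps6, 71.0% for Rps3a1 and, among elongation factors, 60.6% for Eef1a1, but 16.5% for Rpl4 and 6.37% for Rps15a. The part of shared sequence in the low level of these classes was not tested. Elongation factors held 0.0186 ± 0.00793%: Eef1a1 measured 64.5, 23.4, 21.7 and 23.4 FPKM, and library 1 was apart from the others. Initiation factors held more, 0.530 ± 0.0342%, led by Eif2b1 (347, 338, 333 and 323 FPKM), Eif3e (161) and Eif4a2 (129).

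Ubiquitin genes stood above the proteasome. Skp1a (540) and Cul1 (416 FPKM), the core of the ligases that F-box proteins join, and Sumo2 (276) led the first group. The proteasome held 0.249 ± 0.00695%, with Psma2 highest at 95.1 FPKM. Of its 48 genes 35 were expressed, against 41.4% of all listed protein-coding genes, and 4 of 28 were stable, against 21.1% of all. Chaperones held 1.33 ± 0.0847%, of which Hsp90aa1 was the larger part. RNA for splicing factors held 0.788 ± 0.0417%, led by the exon-junction protein Magoh (736), Hnrnpc (191) and Hnrnpk (176 FPKM).

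Nuclear energy genes held little of the pool beside the mitochondrial genome. Of 31 listed genes of glycolysis and pyruvate use 14 were expressed, close to the 41.4% of all listed protein-coding genes. Ldhb, a lactate dehydrogenase, alone measured 386, 440, 286 and 410 FPKM, whereas the next, Dld, stood at 43.4. Nuclear genes of the respiratory chain had a median of 1.17 FPKM, with 43 of 78 expressed, above that 41.4%. They held 0.163 to 0.231% of the sum, highest in library 2. Atp5b (112), Cox8a (100.8) and Uqcrc2 (76.1 FPKM) led them.

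The mitochondrial genome held 5.199 ± 0.163% of the summed FPKM and 1.96% of reads. The listed values of its genes differed by orders of magnitude although the transcripts are cut from shared precursors. mt-Cytb measured 5387, 6913, 6450 and 5676 FPKM, mt-Co1 2788 ± 134, mt-Nd1 2658 ± 78.6, the ribosomal mt-Rnr2 1734 ± 144 and mt-Nd2 1061 ± 25.02 FPKM. At the low end mt-Co2 measured 163, mt-Nd6 116, mt-Co3 85.4, mt-Nd3 12.9, mt-Nd4l 11.8 and mt-Atp8 0.501 FPKM. Of the 50-base stretches, 98.0 to 100% recur in nuclear copies for mt-Co2, mt-Co3, mt-Nd3, mt-Nd4l and mt-Atp6 (556 FPKM), and 51.1% for mt-Co1. For mt-Cytb, mt-Nd1, mt-Nd6 and mt-Atp8 it is 0% and for mt-Nd2 8.19%. The gene mt-Atp8 has only 204 bases (7766-7969) and overlaps mt-Atp6 (7927-8607). Likewise mt-Nd4l, of 297 bases (9877-10173), overlaps mt-Nd4 (10167-11544), which is listed at 707 FPKM. Some copies carried values themselves: Gm10925, a copy of mt-Atp6, is listed at 514 FPKM. The levels of the mitochondrial genes with nuclear copies, and of the short overlapping genes, are therefore uncertain. The part of copies, length and overlap in the order was not tested.

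**Figure D3:**
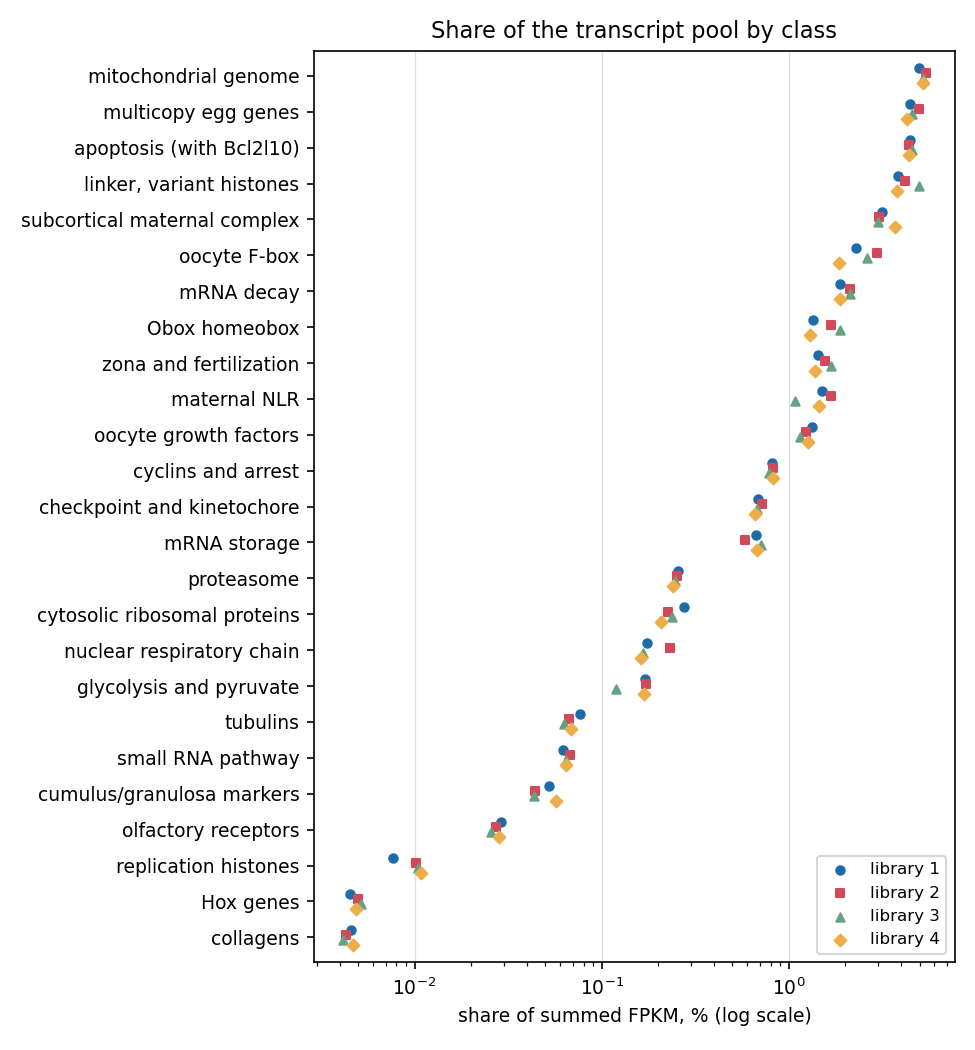
Share of summed FPKM (horizontal axis, %, log scale) of 25 gene classes in each WT library (symbols). Classes overlap in members and are not parts of a whole; the subcortical maternal complex stands near 3.22% and the cytosolic ribosomal proteins near 0.237%.

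Many paralog families were dominated by 1 member. In 16 of 38 families a single gene held at least 90% of the family's summed FPKM, and in 24 at least 75%, while in 11 every member was expressed. The leading gene was the same in all 4 libraries in 36 families. Tet3, a dioxygenase that oxidizes 5-methylcytosine, held 99.1% of its family (98.7 to 99.3%), at 70.9, 62.2, 77.7 and 85.0 FPKM, against 0.432 for Tet1 and 0.236 for Tet2. H1foo held 99.8% of the linker histones, Btg4 99.6% of the BTG/TOB adaptors and Bcl2l10 99.9% of the BCL2 guardians, in which Bcl2l1 stood at 8.69 and Mcl1 at 1.17 FPKM. Camk2g, the calcium-dependent kinase of egg activation, held 99.8% of the CaMKII genes at 45.6, 33.9, 33.2 and 45.9 FPKM.

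Wee2, Ccnb1 and Dnmt1 held 97.3, 94.0 and 94.7% of their families. Ccnb2 (29.9) and Ccnb3 (22.5 FPKM) were present below Ccnb1, and Dnmt3a (5.86), Dnmt3b (1.75) and Dnmt3l (1.45) below Dnmt1. Ago3 held 93.0% of the Argonautes at 12.2, 11.5, 13.7 and 12.9 FPKM, while Ago2, the slicer of RNA interference, stood at 0.919, 0.799, 0.529 and 0.550 FPKM. In transport and metabolism Ldhb held 99.8% of the lactate dehydrogenases, Slc2a1 97.4% of the glucose transporters and Slc16a1 98.7% of the monocarboxylate transporters, though the last 2 reached only 5.17 and 8.22 FPKM. The 4 hexokinases all stayed under 1 FPKM, Hk2 being the highest at 0.372. Slc25a31, an adenine nucleotide carrier of germ cells, held 88.9% of its family at 153 FPKM. Itpr2 held 88.8% of the IP3 receptors (18.7 FPKM), the channels of the fertilization calcium wave, with Itpr1 at 2.32 FPKM.

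Other families were shared. Aurka held 70.0% of the Aurora kinases (63.8 to 76.2%) at 105 FPKM, with the meiotic Aurkc at 37.0 and Aurkb at 7.63. Of the Aurkc transcript, 74.2% of stretches recur elsewhere. Among cAMP phosphodiesterases Pde3a (17.4), which keeps oocytes from resuming meiosis when inhibited, Pde3b (12.8) and Pde8a (12.3 FPKM) were near each other. The deadenylases divided as Cnot7 46.0%, Cnot8 33.8%, Cnot6l 18.1% and Cnot6 2.02%, and the m6A readers as Ythdf3 53.1% and Ythdf2 32.7%, with Ythdf2, needed for maternal RNA clearance, at 36.2, 26.1, 27.2 and 32.3 FPKM. The leading gene changed between libraries in 2 families. Eif4e3 led Eif4e in libraries 1, 3 and 4 (80.9, 79.1 and 81.8 against 67.9, 54.0 and 57.3 FPKM) and not in library 2 (58.7 against 70.0). Pabpn1l, a poly(A)-binding protein of the egg, measured 34.7, 37.1, 106 and 46.5 FPKM and led Pabpc4 only in libraries 3 and 4.

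Silent classes were those of sensory and differentiated cells. Of 1519 annotated receptors for smell, pheromones and taste, 378 are listed and 20 were expressed, with 0.0425 ± 0.00255% of the sum. Among all listed protein-coding genes 41.4% were expressed. Of 1135 olfactory receptors 285 are listed, 70 of them at 0 in all 4 WT libraries, and 13 were expressed. Olfr976 stood out with 33.2, 38.2, 29.6 and 31.9 FPKM in libraries 1 to 4, followed by Olfr214 (5.94) and Olfr1463 (5.32 FPKM). Of the Olfr976 transcript, 2.89% of stretches recur elsewhere. Among 331 vomeronasal receptors 7 were expressed, led by Vmn2r51 (11.8), Vmn2r25 (9.32) and Vmn1r139 (8.46 FPKM), whose transcripts recur in other genes over 52.6, 67.1 and 100%. None of 53 taste and trace-amine receptors reached 1 FPKM.

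Body-patterning and tissue genes were likewise low, with exceptions of 1 or a few genes. The counts of expressed genes that follow stand against 41.4% of all listed protein-coding genes. Of 39 Hox genes 31 are listed and 2 were expressed: Hoxa7 at 11.2, 12.9, 13.2 and 11.6 FPKM and Hoxd13 at 1.73 FPKM. Of the Hoxa7 transcript, 27.0% is shared with the antisense gene Hoxaas3 (0.00328 FPKM), and reads of that stretch cannot be assigned without strand. Of 37 listed collagens 6 were expressed, Col6a6 being the highest (4.81 FPKM). Of 34 listed keratins 4 were, up to Krt10 (4.40), and of 18 listed Sox genes 2, up to Sox8 (2.44). Major urinary proteins and hemoglobins had no expressed member. Of 24 listed interleukins and interferons 6 were expressed, and Il17f (73.7, 64.2, 78.9 and 71.3 FPKM) and Il7 (59.5, 55.0, 57.9 and 68.0 FPKM), cytokines of immune cells, were at similar levels in every tube. Grm2 (54.8) and Grm4 (23.8 FPKM), glutamate receptors, and the claudin Cldn34b2 (77.7 FPKM) are further members of low families at moderate levels. The Y chromosome, absent from female cells, had 0 of 183 protein-coding genes expressed.

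Markers of other cells that a tube could hold were mixed, with most of each ovarian and blood list under 1 FPKM. For scale, 41.4% of all listed protein-coding genes were expressed. Of 30 cumulus and granulosa markers 4 were expressed, 12 lay between 0 and 1 FPKM, 7 are listed at 0 in all 4 libraries and 7 are not listed, with a summed level of 144 to 180 FPKM per library. Serpine2 made up most of it, at 155, 137, 133 and 168 FPKM, followed by Cyp19a1 (6.10), Kitl (3.27) and Nr5a2 (1.18). The 7 at 0 are Fshr, Nr5a1, Tnfaip6, Ptx3, Npr2, Fst and Cd44. Nppc (0.175), Has2 (0.118) and Ptgs2 (0.0751 FPKM) lay under 1 FPKM but above 0 in every library. For Fshr, 3 reads over all 4 libraries would give 0.0117 FPKM, and for Cd44 0.00408. In library 1 alone Gja1 (0.946) and Amhr2 (0.720 FPKM) lay above 0. Of 10 theca and steroid markers, 9 of them listed, Fdx1 (22.3) and Scarb1 (4.51 FPKM) were expressed. The steroid enzymes Cyp17a1 and Cyp11a1 are at 0, and the list summed to 25.8 to 29.8 FPKM.

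Of 30 blood and immune markers, 25 of them listed, only Ms4a1, a B-cell surface channel known as CD20, was expressed (64.3, 49.0, 45.1 and 57.9 FPKM). Cd79a, Cd74 and Itgam are at 0, and the summed level was 46.7 to 66.9 FPKM. Stroma and vessel markers summed to 14.2 to 18.5 FPKM with Myh11 (8.77), Pecam1 (4.51) and Tek (1.85) expressed and Col1a2, Col3a1 and Lum at 0. In the epithelial list Krt8 and Krt18 are at 0 and Cdh1, E-cadherin, stood at 22.7 FPKM. Cldn4 (4.19) was expressed too, and Epcam measured 2.64 FPKM in library 1 against 0.216 to 0.390. Of 18 markers of primordial and premeiotic germ cells 14 are listed, and 8 of these 14 were expressed, against 41.4% of all listed protein-coding genes. They were led by Ifitm3 (35.6), Dppa5a (26.8) and Tfap2c (17.3), and the list summed to 91.1 to 115.1 FPKM. Of 20 sperm markers, 11 of them listed, Odf2 alone was expressed (9.45 FPKM). In the list for 2-cell embryos 7 genes were expressed, led by Sp110 (56.0), Nelfa (30.5) and Tcstv1 (27.5 FPKM), and the Zscan4 genes, the hallmark of that stage, reached 1 FPKM only for Zscan4d (1.001).

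The spread between tubes was larger in less abundant genes. The median coefficient of variation was 21.9% at 1 to 5 FPKM and 14.6% at 5 to 20. It was 12.9% at 20 to 100 FPKM, 10.95% at 100 to 500 and 11.3% at 500 FPKM and above. Counting error alone would give 6.65, 3.03, 1.61, 0.853 and 0.400% in these bins, a floor that leaves out amplification of the cDNA. Of the 4308 genes averaging 5 FPKM or more, 909 (21.1%) were stable, with libraries within 0.25 on log2(FPKM + 1), and 308 (7.15%) were variable, with a difference of at least 1. Without library 2 these counts were 1769 and 145, and without library 3 the stable genes were 1587.

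Variable genes differed in kind from stable ones. Their median exon length was 1659 bases, against 5145 for stable genes and 3937 for all genes considered, and 66.6% of them were protein-coding, against 94.4 and 89.1%. By annotated class, 5.34% of protein-coding genes were variable, 22.6% of lincRNAs and 20.9% of processed pseudogenes. Under 1000 exon bases 28.1% of 349 genes were variable, and in the longest bin 1.72% of 697. Short genes also leaned in 1 direction: the median deviation from the 4-library mean under 1000 bases on the log2 scale was 0.13 in library 2 and -0.06 in the longest bin, while in library 4 it was -0.10 and 0.06. The part of transcript length in the variable calls was not tested.

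**Figure D4:**
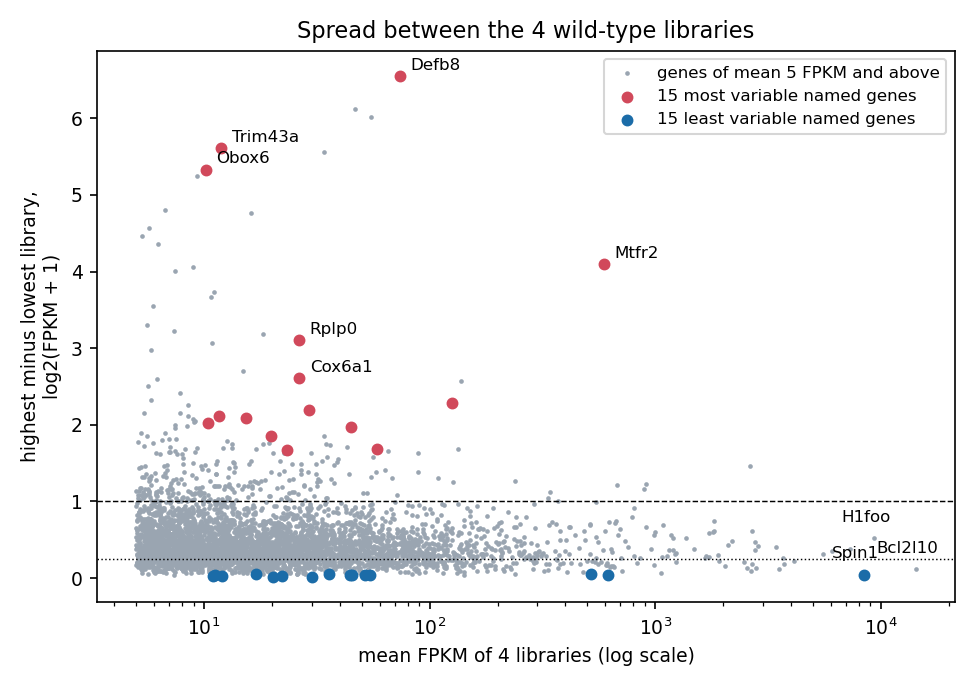
Difference between the highest and the lowest of the 4 WT libraries on log2(FPKM + 1) (vertical axis) against mean FPKM (horizontal axis, log scale) for genes averaging 5 FPKM or more. The dashed line at 1 marks variable and the dotted line at 0.25 stable genes; Defb8 and Trim43a lie at the top and Spin1 at the bottom right.

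The least variable named genes of at least 10 FPKM, given as a description because they were picked for it, were led by Peak1, a cytoskeletal pseudokinase, at 30.3, 30.1, 30.2 and 30.1 FPKM. Its coefficient of variation, 0.280%, is below the 0.995% that counting would give. The splicing factor Prpf3 (20.2 ± 0.114), Tmem131l (11.0 ± 0.0858), Pnpla8 (11.98 ± 0.131), the ubiquitin enzyme Ube2g1 (51.7 ± 0.567), the midbody kinesin Kif23 (54.3 ± 0.644) and the replication helicase Mcm4 (45.4 ± 0.558 FPKM) also varied little, Kif23 with a coefficient of variation of 1.19% against 0.927% from counting. Spin1 was on this list although it is the third most abundant nuclear gene, and so were Paip1, a translation activator (616 ± 8.44), and Tbc1d15 (522 ± 7.84 FPKM). Rbpms, Tax1bp1, Arid5b, Pibf1 and Fam208b complete it.

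The most variable genes fell into patterns by tube. Defb8, a defensin, measured 104, 93.7 and 98.4 FPKM in libraries 1 to 3 and 0.120 in library 4, or 789, 673 and 795 reads against 1. Mtfr2, a regulator of mitochondrial fission, measured 88.6, 92.3, 651 and 1533 FPKM, so libraries 3 and 4 stood above 1 and 2. Klhdc1 was lowest in library 3 (7.11 against 20.95 to 28.25 FPKM), as was the motor Kif5b (10.3 against 27.0 to 50.5). Mcub, a subunit of the mitochondrial calcium uniporter, was higher in libraries 2 and 4 (31.8 and 36.9) than in 1 and 3 (10.9 and 13.6 FPKM).

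Library 2 was the highest in 131 of the 308 variable genes, against 67, 43 and 67 for libraries 1, 3 and 4. These 131 genes had a median exon length of 1096 bases, and their 78 protein-coding members a median coding length of 448.5 bases, against 1353 in all coding genes considered. Among the named ones were the respiratory subunit Cox6a1 (10.1, 66.6, 17.96 and 11.3 FPKM), the kinetochore protein Cenps (60.6, 276, 113 and 55.8), Minos1 (5.13, 25.6, 10.02 and 5.81), Tmem97 (28.2, 89.6, 39.4 and 22.2) and Srek1ip1 (30.6, 100.4, 70.6 and 32.0 FPKM). In all 5 the next highest was library 3. Nuclear respiratory-chain genes had 5 variable members of 16, and cytosolic ribosomal proteins 6 of 16, against 7.15% of all genes considered. Among genes under 1000 exon bases the variable share was 28.1%, and the part of length in these 2 counts was not tested. The ribosomal total was highest in library 1, as were 2 of its variable members: Rplp0 measured 64.0, 6.58, 20.8 and 13.8 FPKM and Rps3a1 34.3, 7.28, 11.5 and 8.03.

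**Figure D5:**
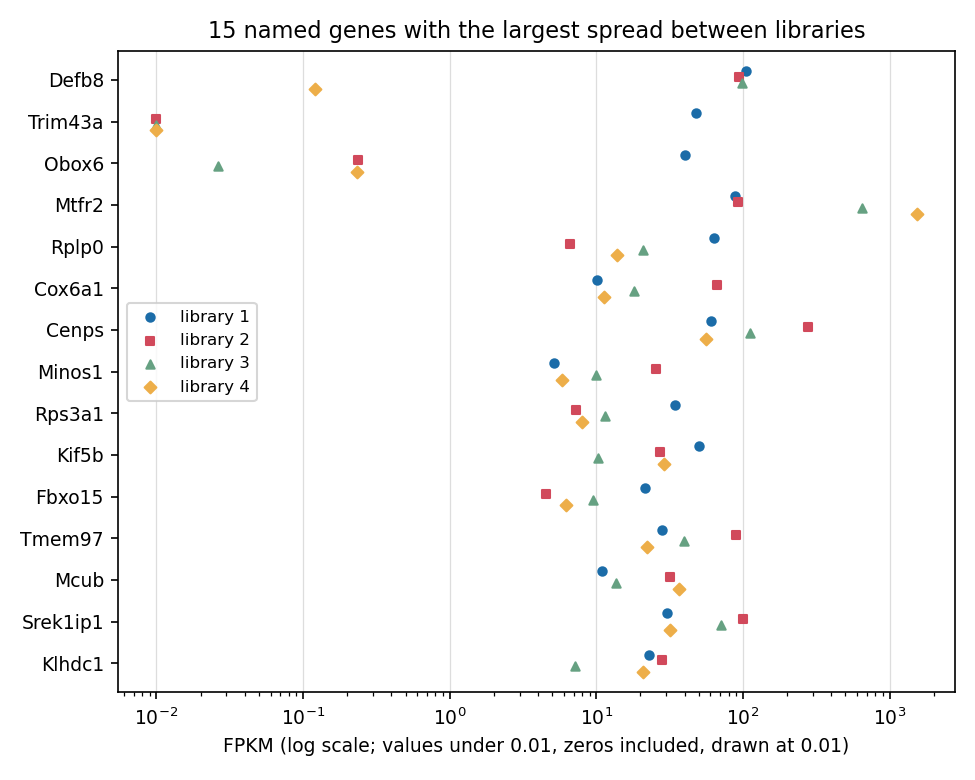
FPKM (horizontal axis, log scale, values under 0.01 drawn at 0.01) of the 15 named genes of at least 10 FPKM with the largest spread, in each WT library (symbols). Defb8 is low only in library 4, Trim43a and Obox6 are high only in library 1, and Cox6a1 and Cenps are highest in library 2.

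Library 1 held genes that the other tubes lacked. At least 1 FPKM there and under 0.1 in all others was found for 80 genes, 53 of them protein-coding, against 20, 6 and 7 genes in libraries 2, 3 and 4. Trim43a measured 47.7 FPKM (2494 reads) in library 1 and 0 in the other 3. The genes that follow were chosen after their values were seen. Trim43b measured 37.0, 0, 0.0157 and 0 FPKM, and Pramel7, known from pluripotent cells, 21.1, 0, 0.0666 and 0. Impdh2, a rate-limiting enzyme of guanine nucleotide synthesis, measured 10.02 against at most 0.0562, the serine-synthesis enzyme Psat1 7.38 against 0, Pramel6 4.88 against 0, Trim43c 4.38 against at most 0.0536, and the pluripotency factor Utf1 1.17 against 0 FPKM. These names do not stand for all 53 coding genes. Among the others were Ctsc (9.10 FPKM in library 1), Sord (8.11), Cd63 (7.82), Zfp622 (7.33) and Tomm5 (6.77). In the list for 2-cell embryos Tdpoz2 (1.03) and Tdpoz4 (0.852 FPKM) were above 0 in library 1 alone, while Zscan4d (1.09 FPKM) lay inside the range of the other tubes (0.641 to 1.44). Of the genes that lead that list, Sp110 (68.8) and Tcstv1 (36.4) were highest in library 3 and Nelfa (35.3 FPKM) in library 4. Fbxo15, known from pluripotent cells, measured 21.5 in library 1 against 4.53 to 9.51 FPKM. Among Y-linked genes, Ddx3y, an RNA helicase, measured 0.226 FPKM in library 1 and 0 elsewhere, Usp9y 0.0656 and Uty 0.0194 against 0, and Eif2s3y 0.191 against at most 0.00961. Zfy2 (0.0488), Zfy1 (0.0264) and Uba1y (0.0188 FPKM) were above 0 in library 1 alone too. Gm47283 (1.28 against at most 0.221) and Kdm5d (0.01 against at most 0.00456 FPKM) were highest there. Others did not follow that tube: the pseudogene Gm20775 was in all 4 libraries (3.42, 5.46, 2.97 and 1.94 FPKM). Mid1-ps1 was highest in library 4 (0.388), Gapdh-ps15 in library 3 (0.0709), and Gm20826 was at 0 in library 1 alone. Genes of any kind above 0 in a single library numbered 2367 in library 1, with a median there of 0.0434 FPKM, and 351 to 887 in the others. Where these transcripts come from was not tested. The egg markers of library 1 lay inside the range of the other 3 libraries for Zp3 and Dazl, above it for Ccnb1 and below it for Mos, and without library 1 the number of expressed genes is 8021 in place of 8169.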

How the data were processed

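Poly(A)-primed Smart-seq2 cDNA of 4 tubes of WT eggs was sequenced, and the authors deposited 1 FPKM value per gene and library, per the file headers. GRCm38 is the build per the submitters' processing notes; how reads were aligned and counted, and against which gene set, is not given in the sources used here. Symbols, classes, exon lengths and 3′ UTRs came from GENCODE M21, which may differ from the authors' release. Reads were recovered as FPKM times exon length over the library's smallest step; 90.04 to 90.64% of genes came out whole within 0.02. No groups were compared and no test was made. Members and lists were chosen with earlier results of these data known.

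A class share is the summed FPKM of the class over that of all genes, per library. Named are the 4 markers, the 25 most abundant nuclear and 5 mitochondrial genes, up to 5 members per list or paralog family (3 in silent ones), and 15 genes at each end of the spread among those of at least 10 FPKM. Other genes, among them Ago2, Tet1, Tet2, the low mitochondrial genes, the Y-linked genes and Gm10925, were chosen after their values were seen. Shared sequence is the percent of a gene's 50-base stretches found in other genes. Poly(A) priming can under-represent RNA with short tails, and FPKM gives a short RNA more weight than its reads. Python 3.11.15, pandas 2.3.3, numpy 2.4.6 and matplotlib 3.10.9 were used.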

Additional observations from a re-analysis of the deposited data

Results flagged for a closer look

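For each gene, class and library total of the report, the gap between the most extreme library and its nearest neighbour was divided by the range of the 4 libraries, and values above Dixon's 95% limit are given here. Ctsc, Sord, Cd63, Zfp622, Tomm5, Zfy2, Zfy1, Uba1y and Gm47283 were not put through this step. Chance alone gives about 5% such values per group, many genes above were named because of their spread, and genes of a tube are not independent, so the number of them is no result.

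Library 1 was above the others in Trim43a (47.66 FPKM), Obox6 (40.28), Trim43b (37.04), Pramel7 (21.14), Impdh2 (10.02), Psat1 (7.38), Pramel6 (4.876), Trim43c (4.382), Utf1 (1.174), Tdpoz2 (1.026) and Tdpoz4 (0.8516 FPKM). The same tube was the highest in the granulosa markers Gja1 (0.9463) and Amhr2 (0.7196) and in the Y-linked genes Ddx3y (0.2261), Eif2s3y (0.1913), Usp9y (0.06558) and Uty (0.01936 FPKM). It was the highest in the epithelial marker Epcam (2.639) and the germ-cell factor Tfap2c (20.24 against 16.1 to 16.37 FPKM). It was also the highest in Eef1a1 (64.47 FPKM), with the elongation factors as a class (0.03044% of summed FPKM), in Rps3a1 (34.27) and in the survival factor Mcl1 (3.638 FPKM against 0.2022 to 0.5496), and the lowest in Pnpla8 (11.79 FPKM).

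Library 2 was above the others in Cox6a1 (66.56 FPKM) and below them in Eif4e3 (58.71 FPKM). It was slightly above in Cenpn (243.2 against 220.6 to 223.2 FPKM), where the other 3 lie close together. Library 3 was below the others in Zp1 (19.37), Gja4 (11.83) and Cdc42 (231.1) and above them in Pabpn1l (105.7 FPKM). Library 4 was below the others in Defb8 (0.1204) and Sfr1 (1467.5) and above them in mt-Co1 (2988.3 FPKM).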

How the results depend on the processing

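Counting reads in place of FPKM, which drops the weight given to short RNAs, changed the shares most: 6.307% for the egg gene families, 2.589% for the subcortical maternal complex, 1.96% for the mitochondrial genome, 0.1058% for cytosolic ribosomal proteins, 0.9484% for growth factors and 0.0238% for olfactory receptors (0.02167% with genes of at least 1 FPKM only). By reads the top 10, 100 and 1000 genes held 13.86, 38.49 and 74.73%, and 229 genes held 50%. At 5 FPKM, 4308 genes count as expressed. Variable genes numbered 155 with a pseudocount of 5, 847 from 1 FPKM, 82 from 20 FPKM, 1266 with no filter, 205 among protein-coding genes only (chosen after seeing the data), and 145 to 257 with each library left out. Stable genes numbered 1421, 1503, 434 and 12838 in the first 4 of these settings and 1265 to 1769 with each library left out. The element TTTTAT was in 7.575% of genes at 1 to 5 FPKM in the last 50 bases and 24.28% in the last 200, and in 13.92% at 500 FPKM and above in the last 50, where the reversed letters were also at 13.92%. In the last 200 bases it was in 39.2% at 100 to 500 FPKM and 35.29% above. The comparison within groups of A and T content was also chosen after seeing the data. With each library left out, the number of expressed genes was 8021 to 8209. Class shares and concentration are means over the 4 libraries. Leaving 1 of 4 values out cannot move such a mean by its SD, so this setting could not test them. Depth limits genes under 1 FPKM, where 3 reads over the 4 libraries equal 0.0277 FPKM for a gene of 1000 bases. No paired analysis was possible because only 1 group was described and no test was made.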
